A study of Mus musculus with 9 samples.

Results

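The MHC class II genes described here are 7 genes picked by symbol from a deposited table of 54532 mouse genes: the chains H2-Aa, H2-Ab1 and H2-Eb1, the invariant chain gene Cd74, the peptide loading genes H2-DMa and H2-DMb1, and the transactivator gene Ciita. All 7 had FPKM values above 0 in every library, and all 7 passed the filter on low values (3 or more libraries at 1 FPKM or higher, met by 13883 genes). FPKM counts fragments for each kilobase of a gene and corrects for the depth of the library. RNA sequencing was done on aortas with atherosclerosis from Apoe-/- mice, which lack a working gene for apolipoprotein E and develop plaques, most of all on a fatty diet. The mice were 6 to 8 weeks old and the regimen lasted 24 weeks. In the HFD_IO group 3 aortas came from mice on a high fat diet that also received ammonium iron(III) citrate into the peritoneum. In the HFD group 3 aortas came from mice on the high fat diet alone, and in the CD group 3 came from mice on chow. All 9 mice carry the Apoe deletion, and the sources used here do not give the strain, the sex or whether animals were pooled.

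MHC class II molecules show peptides from engulfed proteins to CD4+ T cells. An alpha and a beta chain assemble on the invariant chain, endosomal proteases cut that chain down to a short piece in the groove, and the H2-DM dimer exchanges the piece for an antigen peptide. Ciita does not bind DNA itself. It is recruited by RFX, CREB and NF-Y proteins that sit on the X and Y boxes of class II promoters, and interferon gamma induces it outside the professional antigen presenting cells. Dendritic cells and B cells carry class II at steady state, and macrophages gain it when activated. In the artery wall, class II marks dendritic cells of the intima and adventitia and part of the plaque macrophages.

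The whole reads behind the FPKM values could be read back and summed to between 16660963 and 18308450 per library, so 1 read in a gene of 1 kilobase was worth 0.0541 to 0.0615 FPKM. The 3 chain genes rested on 1666 to 7621 reads per library, Cd74 on 6249 to 24281, and Ciita on 91 to 482. The smooth muscle markers that define the aortic wall summed to between 2460 and 8005 FPKM in the 9 libraries, and none of the 7 markers was at 0. Apoe itself was counted at 9.73 to 21.9 FPKM, which checks no label, since no aorta of the table has a working gene to compare with. The 3 comparisons were fitted with limma on log2(FPKM + 1), with the Benjamini-Hochberg adjustment over the 13883 genes of a comparison and a threshold of 0.05. The sources do not say how the aortas of a group relate to each other, so p-values measure the spread between these libraries.

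The genes of the 2 classical molecules, I-A (H2-Aa and H2-Ab1) and I-E (H2-Eb1 and H2-Ea), lie within the MHC on chromosome 17, as do the DM genes. In the coordinates of the table, which are those of GRCm38, H2-DMa lies at chr17:34135182-34139101, H2-DMb1 at chr17:34153072-34160230, H2-Ab1 at chr17:34263209-34269418, H2-Aa at chr17:34282744-34287827 and H2-Eb1 at chr17:34305877-34316199. Ciita lies on chromosome 16, at chr16:10480059-10528418, and Cd74 on another chromosome. All 7 are annotated as protein coding. Start and end equal those of GENCODE M21 for 2 of the 7 (Ciita and H2-DMb1). For the other 5 at least 1 end differs, most for H2-DMa and H2-Ab1, which start at 34119541 and 34257689 in GENCODE M21.

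Promoter windows of RefSeq on GRCm38.p6, from 250 bases before to 50 after a start site, were found for H2-Aa, H2-Eb1, H2-DMb1 and H2-DMa. Those of the first 3 are printed because they hold the boxes through which Ciita is known to be recruited. They run 5′ to 3′ in the direction of the gene, and capitals mark the matches. For H2-Aa the window is chr17:34287774-34288073 (minus strand), for H2-Eb1 chr17:34305617-34305916 (plus strand) and for H2-DMb1 chr17:34152941-34153240 (plus strand).
H2-Aa: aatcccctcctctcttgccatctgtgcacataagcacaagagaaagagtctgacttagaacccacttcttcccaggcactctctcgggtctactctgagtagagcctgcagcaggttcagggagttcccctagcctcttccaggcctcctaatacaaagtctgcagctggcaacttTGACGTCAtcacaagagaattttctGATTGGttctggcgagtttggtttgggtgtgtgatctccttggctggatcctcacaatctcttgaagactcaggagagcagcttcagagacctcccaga
H2-Eb1: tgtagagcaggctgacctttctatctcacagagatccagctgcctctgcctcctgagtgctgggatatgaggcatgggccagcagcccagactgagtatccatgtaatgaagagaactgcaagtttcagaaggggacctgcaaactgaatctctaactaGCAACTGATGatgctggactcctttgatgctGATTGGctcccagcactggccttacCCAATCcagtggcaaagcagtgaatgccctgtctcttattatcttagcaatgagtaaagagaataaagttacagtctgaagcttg
H2-DMb1: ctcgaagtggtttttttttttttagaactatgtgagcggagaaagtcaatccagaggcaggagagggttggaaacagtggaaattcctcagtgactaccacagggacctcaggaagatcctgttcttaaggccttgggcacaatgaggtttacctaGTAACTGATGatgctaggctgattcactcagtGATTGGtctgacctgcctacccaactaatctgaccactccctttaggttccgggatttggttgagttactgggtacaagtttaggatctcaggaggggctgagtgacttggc

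The Y box core (GATTGG, bound by NF-Y) was found on the gene's strand in all 3 windows, with its first base at -49 in H2-Aa, -60 in H2-Eb1 and -62 in H2-DMb1, counted from the RefSeq start. H2-Eb1 holds a further copy on the other strand at -35. The X1 box core (GNAAC followed by NGNTG, bound by RFX) was found as GCAACTGATG at -91 in H2-Eb1 and as GTAACTGATG at -94 in H2-DMb1, 31 and 32 bases upstream of the Y box. In H2-Aa the X2 box core (TGNNGTCA, bound by CREB), here a full palindrome, lies at -74 and 25 bases upstream of the Y box. Both strands were searched. All 8 class II genes with a window held the Y box core in at least 1 window. They are the 4 members named above, H2-DMb2, H2-Oa, H2-Ob and H2-Eb2. For H2-DMa, which has 2 windows, it was found only in that at chr17:34125268-34125567. The X1 core was held by 3 of the 8 (H2-Eb1, H2-DMb1 and H2-Eb2). The shares that follow count windows, not genes. Of all 25038 such windows over 20484 genes, 17.2% held the Y box core, 3.59% the X1 core, 18.5% the X2 core and 0.659% both the Y and the X1 core. The 2 windows of H2-DMa belong to RefSeq start sites far upstream of the start of the gene in the table. The RefSeq start of H2-DMb1 lies inside the gene of the table. That of H2-DMb2, at 34145249, lies downstream of its start in the table, at 34143307. These are matches of letters, and no binding was measured.

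Cd74 was the most abundant of the 7 in every library. It had 240, 988 and 333 FPKM in HFD_IO aortas, against 648, 861 and 498 FPKM in HFD aortas and 822, 371 and 491 FPKM in CD aortas. The 3 groups overlapped: the highest and the lowest of the 9 values were both in HFD_IO aortas. Cd74 encodes the chaperone that holds the chains together and keeps their groove closed, and its level differed by up to 4.12-fold between single aortas.

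The chain genes had their highest and lowest levels in the same libraries as Cd74. H2-Aa, the alpha chain of I-A, had 52.9, 215 and 66.4 FPKM in HFD_IO aortas, against 168, 156 and 81.7 FPKM in HFD aortas and 142, 74.9 and 87.8 FPKM in CD aortas. Its partner H2-Ab1, the beta chain of I-A, had 62.1, 267 and 87.1 FPKM in HFD_IO aortas, against 216, 170 and 97.8 FPKM in HFD aortas and 141, 94.1 and 109 FPKM in CD aortas. H2-Eb1, the beta chain of I-E, had 76.1, 355 and 107 FPKM in HFD_IO aortas, against 273, 314 and 190 FPKM in HFD aortas and 219, 117 and 137 FPKM in CD aortas. In each of these genes the library HFD_IO_2 was the highest of all 9 and HFD_IO_1 the lowest, so the iron-treated aortas spanned the values of both other groups.

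The peptide loading genes lay below the chain genes in every library and did not follow each other. H2-DMa, the alpha chain of the exchange factor, had 8.80, 24.9 and 10.8 FPKM in HFD_IO aortas, against 19.8, 22.8 and 15.3 FPKM in HFD aortas and 30.7, 9.91 and 14.3 FPKM in CD aortas. H2-DMb1, its beta chain, had 17.4, 42.4 and 20.1 FPKM in HFD_IO aortas, against 29.9, 15.7 and 8.33 FPKM in HFD aortas and 19.7, 14.4 and 16.4 FPKM in CD aortas. The highest library for H2-DMa was CD_1 and for H2-DMb1 it was HFD_IO_2, and both genes overlapped between all groups. Ciita, the transactivator, had 0.754, 1.93 and 0.856 FPKM in HFD_IO aortas, against 1.25, 3.02 and 0.587 FPKM in HFD aortas and 1.61, 1.38 and 1.37 FPKM in CD aortas. Its CD aortas lay close together, inside the range of either high fat group.

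**Figure D1:**
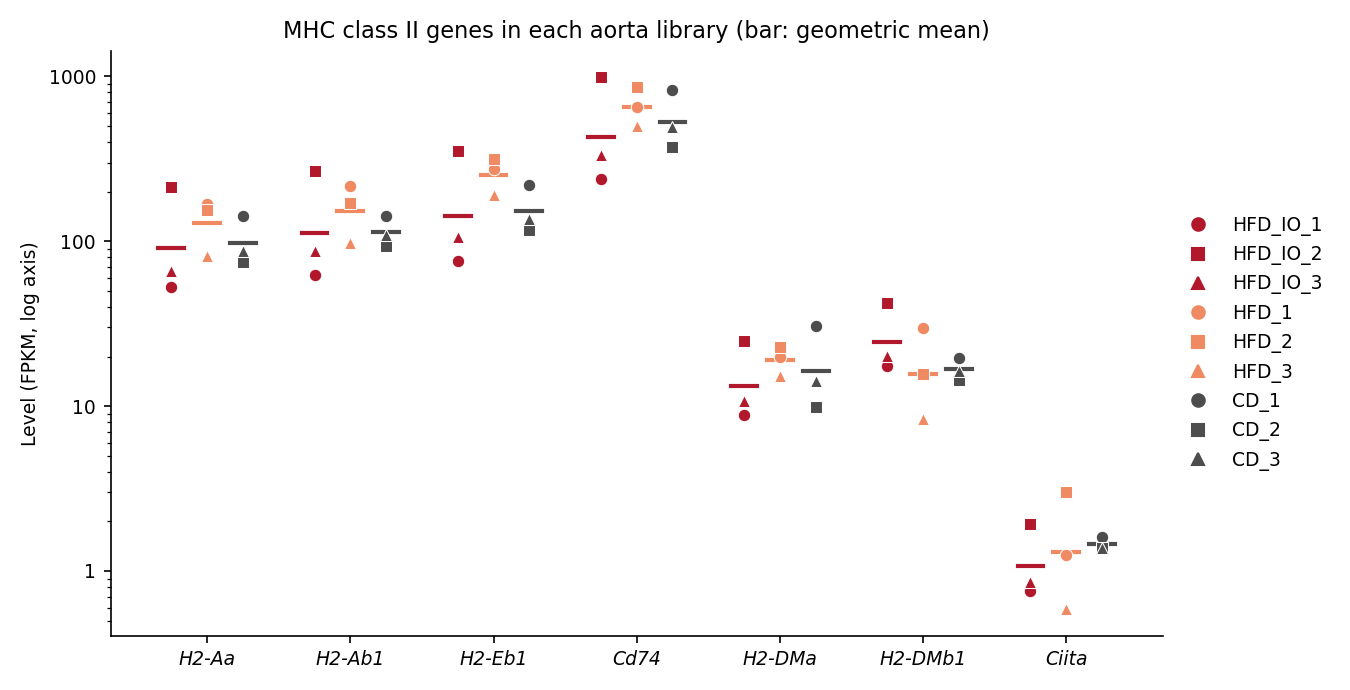
Level of each MHC class II gene in FPKM (log axis) in HFD_IO, HFD and CD aortas, left to right within each gene; each point is 1 library, its shape the library number, and bars are geometric means of 3. HFD_IO_2 is the highest point for Cd74, H2-Aa, H2-Ab1, H2-Eb1 and H2-DMb1, while HFD_IO_1 is the lowest for Cd74, the chains and H2-DMa.

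The first question of the design is what the high fat diet does to the aorta. Here 0 of the 7 genes passed the threshold in HFD against CD aortas, where limma called 39.4% of the genes tested. At an unadjusted p under 0.05 the count was also 0 of 7, and voom on the recovered reads called 0. None of the 7 had groups that did not overlap, against 50.7% of all tested genes. The log2 fold changes ran between -0.07 for H2-DMb1 and 0.74 for H2-Eb1 (limma adjusted p = 0.275), with a median of 0.30 beside 0.06 over all tested genes. In FPKM, H2-Eb1 averaged 259 ± 62.9 in HFD aortas and 158 ± 54.3 in CD aortas (SD, n = 3 each). Cd74 averaged 669 ± 183 FPKM in HFD aortas and 561 ± 234 FPKM in CD aortas, a log2 fold change of 0.30 with a 95% interval of -0.84 to 1.43. A difference of up to 1.89 on the log2 scale for H2-Eb1 lies inside the intervals, so the genes cannot be called unaffected at this spread.

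The next question is what added iron does on the high fat diet. Again 0 of 7 genes passed the threshold in HFD_IO against HFD aortas, where 28.6% of all tested genes did, and 0 of 7 passed with voom or at an unadjusted p under 0.05. None had groups that did not overlap, against 48.5% of tested genes. The log2 fold changes were negative for 6 of the 7, from -0.83 for H2-Eb1 (limma adjusted p = 0.248) to -0.20 for Ciita, and 0.60 for H2-DMb1 (limma adjusted p = 0.320), with a median of -0.48 beside -4.2e-05 over all tested genes. H2-Eb1 averaged 179 ± 153 FPKM in HFD_IO aortas and 259 ± 62.9 FPKM in HFD aortas (SD, n = 3 each). H2-Aa averaged 111 ± 89.9 FPKM in HFD_IO aortas and 135 ± 46.8 FPKM in HFD aortas. This comparison depended on which HFD_IO library was left out. Without HFD_IO_2 the log2 fold change of H2-Eb1 was -1.48 and passed the threshold (limma adjusted p = 0.0197). Those of Cd74, H2-Aa and H2-Ab1 were then -1.21, -1.11 and -1.05 without passing it (limma adjusted p = 0.0517, 0.0658 and 0.0620). Without HFD_IO_1 the values of H2-Eb1, Cd74, H2-Aa and H2-Ab1 were -0.38, -0.19, -0.11 and -0.0037, and none passed (limma adjusted p = 0.618 to 0.997).

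In HFD_IO against CD aortas 0 of 7 genes passed the threshold, where 32.5% of tested genes did, with 0 at an unadjusted p under 0.05 and 0 with voom. None had groups that did not overlap, against 47.0% of tested genes. The log2 fold changes lay between -0.31 for Cd74 and 0.54 for H2-DMb1 (limma adjusted p = 0.382), and the median was -0.10 beside -0.01 over all tested genes. H2-Ab1 averaged 139 ± 112 FPKM in HFD_IO aortas and 115 ± 24.2 FPKM in CD aortas (SD, n = 3 each), with a log2 fold change of -0.0015 and a 95% interval of -1.12 to 1.12. The 3 comparisons share groups with each other, so their values are not independent.

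**Figure D2:**
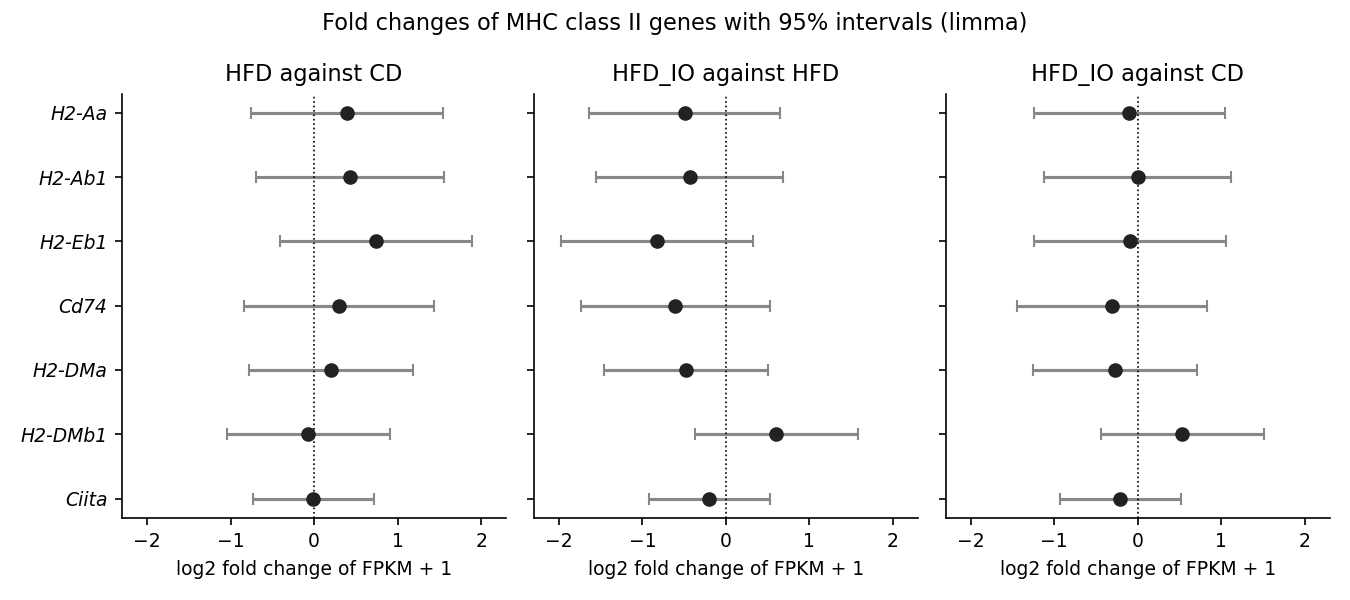
Log2 fold change of FPKM + 1 (x axis) of each MHC class II gene in the 3 comparisons, from limma over all 9 libraries; points are estimates and lines are 95% intervals. Every interval includes 0, and the lines reach from -1.98 to 1.89, both for H2-Eb1.

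The spread between aortas of the same group was wide for these genes. The SD within groups was 0.75 on the log2 scale for H2-Aa and H2-Eb1, 0.74 for Cd74, 0.73 for H2-Ab1, 0.65 for H2-DMa, 0.64 for H2-DMb1 and 0.46 for Ciita. The median tested gene had an SD of 0.18. Of all tested genes, 93.0% had a smaller SD than Ciita and 98.0% a smaller one than H2-Eb1. In bulk aorta, fewer class II-positive cells and less class II RNA in each cell cannot be told apart.

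The libraries HFD_2 and HFD_3 stood apart from the other 7, and the gene that showed it best belongs to class II. H2-Ea-ps at chr17:34342933-34344643 is the alpha chain gene of I-E, annotated as a pseudogene in the reference, whose MHC haplotype b carries a deletion in its promoter and makes no E alpha chain. It had 171 FPKM (1965 reads) in HFD_2 and 77.9 FPKM (868 reads) in HFD_3. It had 0 reads in the other 7 libraries, where a count of 0 allows up to 0.237 to 0.251 FPKM (3 reads, counting error only). Within HFD_2 and HFD_3 its level was 0.546 and 0.409 times that of H2-Eb1, the beta chain that pairs with it. Whether the 9 mice share 1 MHC haplotype was not tested.

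Of all genes, 4 were at 1 FPKM or more in both HFD_2 and HFD_3 and at 0 in the other 7: H2-Ea-ps, Gm4134 also on chromosome 17, BC018473 on chromosome 11, and the immunoglobulin segment Iglj3. Other genes of the MHC, picked after their values were seen, also differed in those libraries. The class I gene H2-Q1 had 1.88 and 2.75 FPKM in HFD_2 and HFD_3, against at most 0.261 FPKM in the other 7 libraries. H2-D1, a main class I gene, had 292 and 236 FPKM in HFD_2 and HFD_3, against 364 to 802 FPKM elsewhere. Genes outside the MHC differed too. Gm13443 on chromosome 2, picked in the same way, had 45.1 and 37.6 FPKM in HFD_2 and HFD_3, against at most 0.891 FPKM in the other 7. A gene whose sequence in a mouse departs from the reference can lose or gain reads in alignment, and how far this touched the class II genes was not tested.

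The same libraries also stood out in markers of other cells. The summed level of 12 B cell markers was 143 FPKM in HFD_2, against 11.1 to 27.2 FPKM in the other 8 libraries. Cd79a, a signalling chain of the B cell receptor, had 43.0 FPKM in HFD_2 and 6.29 FPKM in HFD_3, against 1.28 to 3.88 FPKM in the others. The 6 skeletal muscle markers summed to 80.1 and 50.7 FPKM in HFD_2 and HFD_3, against 2.67 to 12.0 FPKM in the others. Leaving out both libraries leaves HFD_1 as the only HFD aorta and assumes that it varies like the other groups. Far fewer of all tested genes then passed the threshold in both comparisons with HFD aortas. Calls lost in this setting, here and below, thus say little about single genes. The log2 fold changes of the 7 class II genes lay between -0.13 for Ciita and 0.92 for H2-Ab1 in HFD against CD. In HFD_IO against HFD they lay between -0.93 for H2-Eb1 and -0.08 for Ciita.

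The class II genes outside the 7 were low except in those libraries. H2-DMb2, a second DM beta chain gene next to H2-DMb1, had 1.36, 1.64 and 0.762 FPKM in HFD_IO aortas, against 2.41, 16.9 and 4.79 FPKM in HFD aortas and 1.75, 1.19 and 0.931 FPKM in CD aortas. It rose in HFD against CD (log2 fold change 1.64, limma adjusted p = 0.0295) and fell in HFD_IO against HFD (-1.67, limma adjusted p = 0.0357). Both calls were lost without HFD_2 and HFD_3 (limma adjusted p = 0.227 and 0.274) and without CD_2 or CD_3 alone, with limma adjusted p = 0.0745 and 0.0869 for the rise and 0.0515 and 0.0505 for the fall. The fall was also lost without HFD_3 or any 1 HFD_IO library, or with voom on recovered reads, and both calls were lost with no filter on low values, with only the groups compared in the fit, or with the trend on gene length removed.

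H2-Oa and H2-Ob, which form the inhibitor of DM in B cells, reached 5.14 and 6.24 FPKM in HFD_2 and at most 1.00 FPKM elsewhere. H2-Eb2, a second E beta gene, reached 1.38 FPKM in HFD_2 and at most 0.591 FPKM elsewhere. Neither they nor H2-Ea-ps passed the filter on low values.

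H2-DMb1 and H2-DMb2 have near-identical transcripts, 95.8% identical over 1080 aligned bases, so counting can split reads between them. In HFD_2 they had 15.7 and 16.9 FPKM, and in every other library H2-DMb1 was the higher of the pair. With both summed, the log2 fold change of H2-DMb1 was 0.45 in HFD against CD, in place of -0.07, and 0.05 in HFD_IO against HFD, in place of 0.60. Without HFD_2 and HFD_3 these values were 0.80 and -0.27, so the sign of H2-DMb1 in either comparison rests on those libraries. None of these values passed the threshold (lowest limma adjusted p = 0.278).

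**Figure D3:**
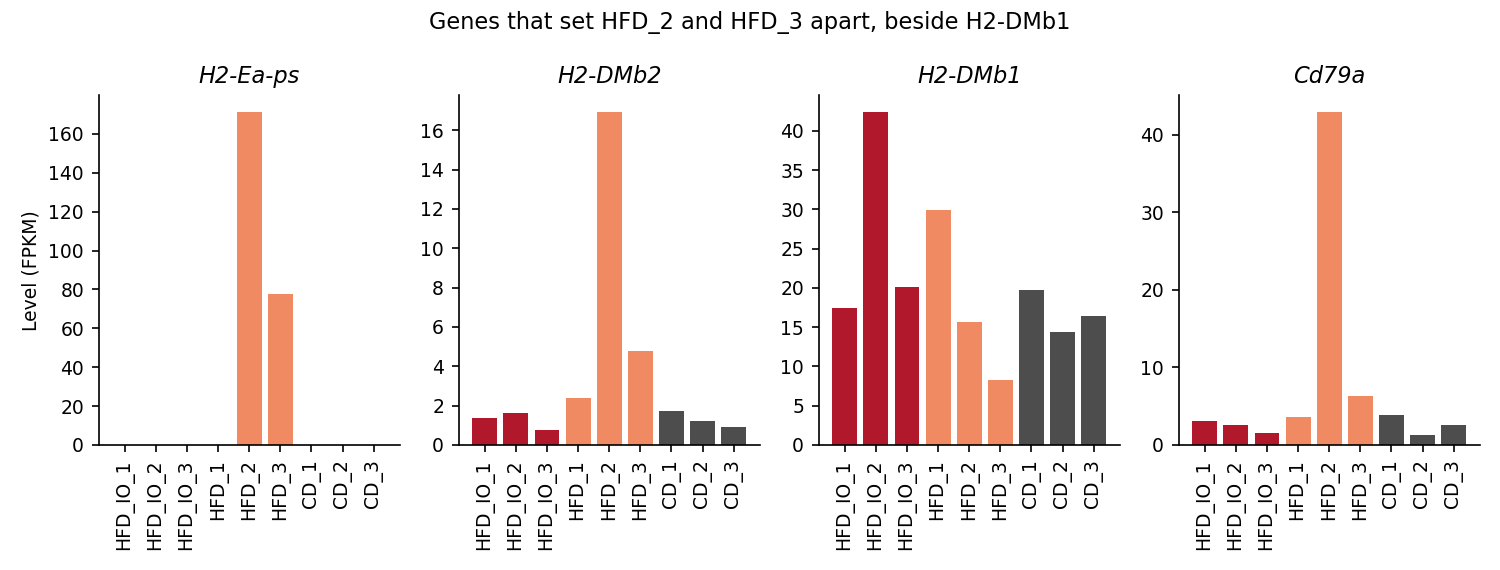
Level in FPKM of H2-Ea-ps, H2-DMb2, H2-DMb1 and the B cell gene Cd79a in each library, HFD_IO, HFD and CD from left to right; bars start at 0 and each bar is 1 library. H2-Ea-ps appears in HFD_2 and HFD_3 with no reads in the other 7 libraries, and HFD_2 is the highest for H2-DMb2 and Cd79a.

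Within a library the chains kept close to fixed ratios. H2-Ab1 was 0.997 to 1.31 times H2-Aa over the 9 libraries, although their levels ranged 4.30-fold and 4.06-fold. Cd74 was 3.85 to 6.10 times H2-Aa. H2-Eb1 was 1.22 to 1.55 times H2-Ab1 in 7 libraries and 1.85 and 1.95 times in HFD_2 and HFD_3. The ratio of H2-Aa to Ciita was looser, from 51.5 in HFD_2 to 139 in HFD_3. The groups overlapped in each of these 4 ratios (exact permutation tests, two-sided, p = 0.2 to 0.8, where 0.1 is the smallest possible).

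The ratio of the DM chains separated HFD_IO aortas from the other libraries. H2-DMb1 was 1.98, 1.70 and 1.87 times H2-DMa in HFD_IO aortas, against 1.51, 0.687 and 0.543 times in HFD aortas and 0.641, 1.45 and 1.15 times in CD aortas. All 3 HFD_IO values lay above all 6 others, including HFD_1, which shows no H2-Ea-ps. With H2-DMb2 added to H2-DMb1 the ratio was 2.13, 1.77 and 1.94 in HFD_IO aortas, against 1.63, 1.43 and 0.855 in HFD aortas and 0.698, 1.57 and 1.22 in CD aortas, and HFD_IO aortas still did not overlap with HFD or CD aortas. HFD and CD aortas overlapped in both forms of the ratio. For 3 against 3 libraries the exact permutation test gives p = 0.1 at best, and it gave p = 0.1 for HFD_IO against HFD and against CD. Adjusted over the 27 ratio tests this was 0.245, so neither difference passed the threshold.

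**Figure D4:**
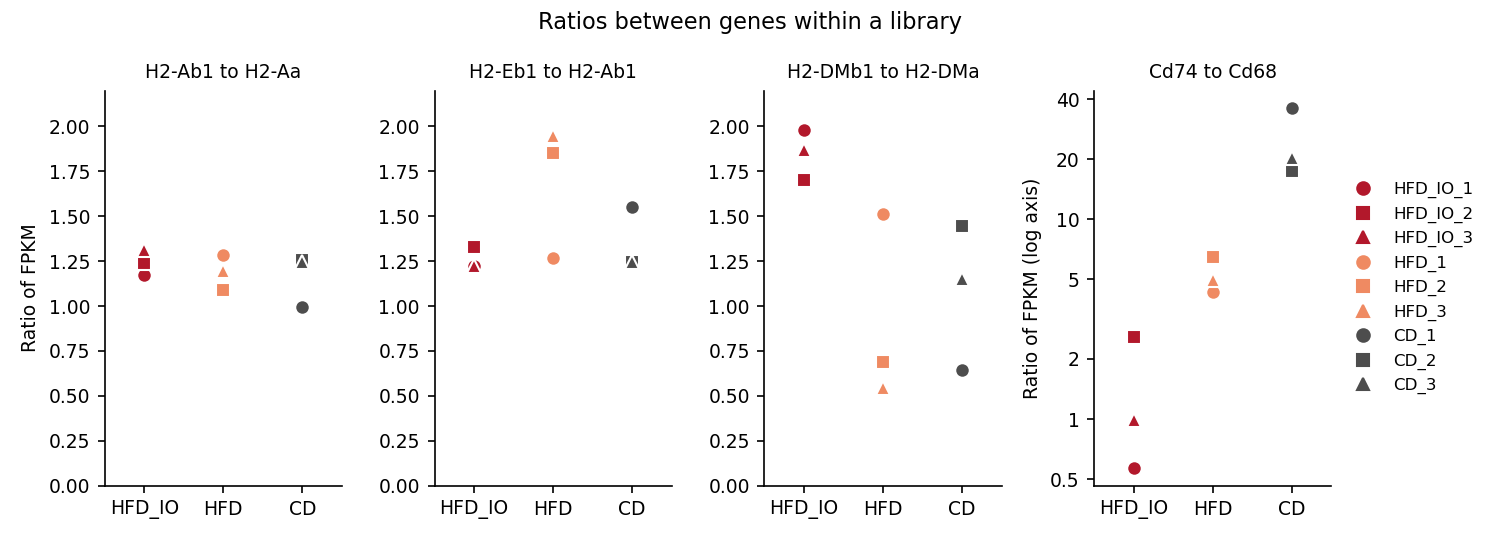
Ratio of FPKM between pairs of genes within each library, in HFD_IO, HFD and CD aortas from left to right; each point is 1 library, and the axis for Cd74 to Cd68 is logarithmic. The H2-DMb1 to H2-DMa ratios of HFD_IO aortas (1.70 to 1.98) lie above the others, and the Cd74 to Cd68 ratios of the 3 groups do not overlap.

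Macrophage markers moved in all 3 comparisons while the class II genes did not pass. Of 16 markers, 14 rose in HFD against CD, 13 in HFD_IO against HFD and 15 in HFD_IO against CD, and 0 fell in any. Among all tested genes 21.8%, 14.1% and 17.5% rose in these comparisons, and 17.6%, 14.5% and 15.0% fell. The markers summed to between 5656 and 9477 FPKM in HFD_IO aortas, 3399 and 5641 FPKM in HFD aortas and 707 and 774 FPKM in CD aortas, and none was at 0. The 13 rises in HFD_IO against HFD were 8 without HFD_3 and 3 without both HFD_2 and HFD_3.

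Cd74 was 0.571, 2.59 and 0.985 times Cd68, a lysosomal membrane protein of macrophages, in HFD_IO aortas, against 4.35, 6.44 and 4.99 times in HFD aortas and 35.9, 17.4 and 20.2 times in CD aortas. The groups did not overlap in any of the 3 comparisons (exact permutation test, two-sided, p = 0.1, the smallest possible, and 0.245 adjusted over 27 tests). Against C1qb, a complement gene of macrophages, Cd74 was 0.276 to 0.705 times in HFD_IO aortas, 0.996 to 1.56 times in HFD aortas and 2.87 to 6.58 times in CD aortas. In these ratios the numerator varied within groups and the denominator between them: Cd68 had 420, 382 and 338 FPKM in HFD_IO aortas, against 149, 134 and 99.9 FPKM in HFD aortas and 22.9, 21.3 and 24.2 FPKM in CD aortas.

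**Figure D5:**
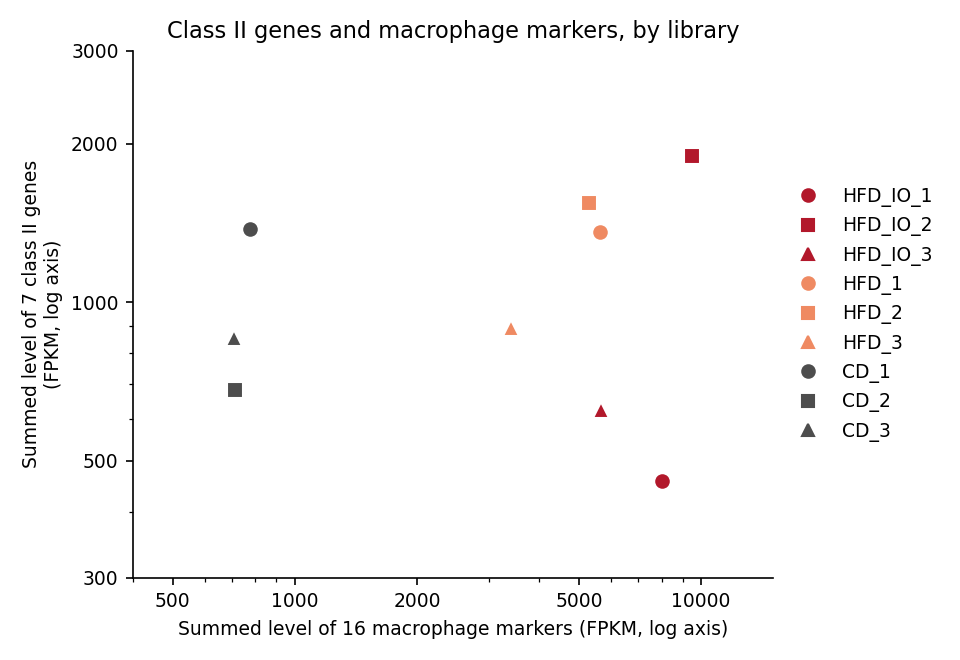
Summed level of the 7 MHC class II genes (y axis) against the summed level of 16 macrophage markers (x axis) in FPKM, both axes logarithmic; each point is 1 library. The macrophage sum is 5656 to 9477 FPKM in HFD_IO aortas and 707 to 774 FPKM in CD aortas, while the class II sum is 458 to 1894 FPKM in HFD_IO aortas and 683 to 1377 FPKM in CD aortas.

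Of the other antigen presenting cells, the dendritic cell list gave mixed results. In HFD against CD 4 of 9 tested markers rose and 2 fell, in HFD_IO against HFD 2 rose and 1 fell, and in HFD_IO against CD 3 rose and 0 fell. The shares of all tested genes were 21.8%, 14.1% and 17.5% for rises and 17.6%, 14.5% and 15.0% for falls. Itgax, the CD11c integrin that plaque macrophages also carry, had 61.7, 63.7 and 53.9 FPKM in HFD_IO aortas, against 25.2, 21.2 and 11.1 FPKM in HFD aortas and 3.79, 4.20 and 3.78 FPKM in CD aortas, and rose in each comparison. Zbtb46, a transcription factor of conventional dendritic cells, fell in HFD against CD (log2 fold change -0.49, limma adjusted p = 0.00934) and rose in HFD_IO against HFD (0.37, limma adjusted p = 0.0357). Which cells of the bulk aorta these changes came from was not tested. Flt3 and Xcr1, which mark dendritic cells, were at or below 0.349 FPKM in every library, and Xcr1 was at 0 in HFD_IO_3. The whole list summed to 77.7 to 94.0 FPKM in HFD_IO aortas, 36.6 to 58.1 FPKM in HFD aortas and 20.3 to 25.5 FPKM in CD aortas. Without Itgax the other 11 genes summed to 23.7 to 30.3 FPKM in HFD_IO aortas, 25.5 to 36.8 FPKM in HFD aortas and 16.1 to 21.7 FPKM in CD aortas, so HFD_IO and HFD aortas then overlapped. Without HFD_2 and HFD_3, 2 of the markers rose and 0 fell in HFD against CD, and 1 rose and 0 fell in HFD_IO against HFD. The 2 falls in HFD against CD numbered 1 without CD_1, CD_2, HFD_2 or HFD_3, each left out alone. The second call of Zbtb46 was also lost without CD_2, CD_3, HFD_2, HFD_3, HFD_IO_2 or HFD_IO_3, each left out alone.

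In the T cell list 0 of 9 tested markers passed in any comparison (limma), and in the list of T cell molecules that engage class II 0 of 6 did. The shares over all tested genes were 39.4% in HFD against CD, 28.6% in HFD_IO against HFD and 32.5% in HFD_IO against CD. A single T cell marker rose in HFD against CD on leaving out HFD_2 and HFD_3 together. Cd4, the coreceptor for class II, had 3.07, 3.37 and 1.04 FPKM in HFD_IO aortas, against 4.46, 4.76 and 1.33 FPKM in HFD aortas and 4.57, 2.52 and 1.61 FPKM in CD aortas. Of the B cell markers 2 of 6 tested rose in HFD against CD (Cd22 and Cd79b), 0 in HFD_IO against HFD and 1 in HFD_IO against CD (Cd22). Without HFD_1, which leaves HFD_2 and HFD_3, 4 rose in HFD against CD and 3 fell in HFD_IO against HFD. The rise of Cd79b in HFD against CD (log2 fold change 2.05, limma adjusted p = 0.0328) was lost without CD_2, without CD_3 or without HFD_2 and HFD_3 together. Cd74 was 76.0, 380 and 209 times Cd79a in HFD_IO aortas, against 180, 20.04 and 79.1 times in HFD aortas and 212, 289 and 189 times in CD aortas.

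Markers of cells of the wall and its surroundings also moved. For scale, 39.4% of all tested genes passed in HFD against CD, 28.6% in HFD_IO against HFD and 32.5% in HFD_IO against CD. Of 7 smooth muscle markers 0 passed in HFD against CD (limma), 5 fell in HFD_IO against HFD and 5 fell in HFD_IO against CD. Of 7 endothelial markers 6 fell in HFD against CD, 2 rose in HFD_IO against HFD and 3 fell in HFD_IO against CD. The falls of smooth muscle markers numbered 3 on leaving out HFD_3, HFD_IO_1 or HFD_IO_2 in the first of these comparisons, 3 without CD_2, CD_3, HFD_IO_1 or HFD_IO_2 in the second, and 1 in the first without HFD_2 and HFD_3 together. In HFD against CD 2 smooth muscle markers rose without HFD_IO_2. The rises of endothelial markers in HFD_IO against HFD numbered 1 without HFD_2 and 0 without HFD_3, HFD_IO_1 or HFD_IO_3, and the 6 falls in HFD against CD numbered 2 without HFD_2 and HFD_3. Of 6 fibroblast markers 2 rose in HFD against CD, 2 fell in HFD_IO against HFD, and 2 rose and 2 fell in HFD_IO against CD; without HFD_3, 1 fell in HFD_IO against HFD. Of 6 white adipocyte markers 2 rose in HFD against CD (Lep and Cidec), the same 2 fell in HFD_IO against HFD and 0 passed in HFD_IO against CD. Their sum was 189 to 1490 FPKM in HFD_IO aortas, 857 to 2324 FPKM in HFD aortas and 366 to 863 FPKM in CD aortas, lowest in HFD_IO_1, which was also lowest for the class II chains, and highest in HFD_3, where H2-Aa was lower than in HFD_1 and HFD_2. Of 4 tested skeletal muscle markers 1 rose in HFD against CD (Acta1), and this call was lost on leaving out any 1 of CD_1, CD_2, CD_3, HFD_2, HFD_3, HFD_IO_1 or HFD_IO_3. Without HFD_1, 4 of them rose in HFD against CD and 4 fell in HFD_IO against HFD, and without HFD_IO_2, 2 rose in HFD against CD. The calls of Cidec were lost in HFD against CD without CD_2, CD_3 or HFD_3, and in HFD_IO against HFD on leaving out any 1 library other than HFD_IO_2. Without HFD_IO_2, 4 adipocyte markers fell in HFD_IO against HFD. Without HFD_2 and HFD_3, 1 rose in HFD against CD and 0 fell in HFD_IO against HFD. The part that any of these cells had in the class II levels was not tested.

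A further list held genes of endosomal processing and class II trafficking. Of these, 9 of 12 rose in HFD against CD, 4 in HFD_IO against HFD and 10 in HFD_IO against CD, and 0 fell. The shares of all tested genes that rose were 21.8%, 14.1% and 17.5%. Macrophage markers rose in the same comparisons, and whether the rises of the list concern class II was not tested. The median log2 fold change of the 12 was 1.4999, 0.45 and 1.86 in these comparisons. Ctss, the cathepsin that makes the last cuts in the invariant chain, had 1103, 1446 and 756 FPKM in HFD_IO aortas, against 738, 707 and 332 FPKM in HFD aortas and 65.9, 45.3 and 46.6 FPKM in CD aortas. It rose in HFD against CD (log2 fold change 3.40, limma adjusted p = 0.000511) and in HFD_IO against CD (4.33, limma adjusted p = 4.53e-05).

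Lgmn, an asparagine endopeptidase that can start the cleavage of the invariant chain, rose in all 3 comparisons, by 1.87 in HFD against CD, 1.05 in HFD_IO against HFD and 2.92 in HFD_IO against CD on the log2 scale (limma adjusted p = 0.000844, 0.0101 and 4.25e-05). Ifi30, the thiol reductase of the antigen pathway, rose in HFD against CD (1.31) and in HFD_IO against CD (1.65). March1, a ubiquitin ligase that sends class II molecules for degradation, had 3.41, 4.58 and 2.44 FPKM in HFD_IO aortas, against 1.54, 2.201 and 1.11 FPKM in HFD aortas and 0.715, 0.635 and 0.776 FPKM in CD aortas, and rose in each comparison. Its rise in HFD against CD was lost on leaving out any 1 library other than HFD_3, HFD_IO_2 or HFD_IO_3 (limma adjusted p = 0.0604 to 0.141). Of the 4 rises in HFD_IO against HFD (Lgmn, Ctsd, Ctsb and March1), 1 was left without HFD_3, without HFD_IO_1 or without HFD_IO_2, and 0 without HFD_2 and HFD_3 together.

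Among 11 factors of the class II promoter, 2 fell in HFD against CD and 0 passed in the comparisons of HFD_IO aortas. The 2 falls are near the share over all tested genes, of which 17.6% fell in HFD against CD. In HFD_IO against HFD and HFD_IO against CD, 28.6% and 32.5% of all tested genes passed. Rfx5, the RFX subunit that binds the X1 box, had 3.09, 2.64 and 3.15 FPKM in HFD_IO aortas, against 2.52, 2.10 and 1.93 FPKM in HFD aortas and 2.96, 3.31 and 3.24 FPKM in CD aortas, a fall of 0.39 on the log2 scale in HFD against CD (limma adjusted p = 0.0191). Crebbp, the CBP acetyltransferase recruited by Ciita, fell by 0.57 on the log2 scale (limma adjusted p = 0.0281). Both falls were lost on leaving out CD_2, CD_3 or HFD_2 alone, that of Rfx5 also without HFD_3 and that of Crebbp also without HFD_1. Without CD_1, 2 factors rose in HFD_IO against HFD.

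On the interferon gamma route to Ciita, 5 of 14 tested genes rose in HFD against CD, 4 in HFD_IO against HFD and 8 in HFD_IO against CD, and 0 fell. Over all tested genes 21.8%, 14.1% and 17.5% rose. Ifng itself was at or below 0.177 FPKM in every library and was not tested. Spi1, the PU.1 factor of myeloid cells, had 51.0, 72.4 and 53.2 FPKM in HFD_IO aortas, against 32.8, 26.8 and 20.3 FPKM in HFD aortas and 8.21, 8.18 and 8.05 FPKM in CD aortas, and rose in each comparison. Socs3, a feedback inhibitor of cytokine signalling, also rose in each (0.80, 1.34 and 2.15 on the log2 scale), in HFD against CD not without CD_1, HFD_1 or HFD_2. Without HFD_2 and HFD_3, 3 genes rose in HFD against CD and 0 in HFD_IO against HFD.

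More target genes of interferon gamma fell than rose against CD aortas. In HFD against CD 5 of 12 tested fell and 1 rose, in HFD_IO against CD 3 fell and 1 rose, and in HFD_IO against HFD 1 rose. The shares of all tested genes, in the same order, were 17.6%, 15.0% and 14.5% for falls and 21.8%, 17.5% and 14.1% for rises. Gbp4, a guanylate binding protein, had 1.61, 2.03 and 1.05 FPKM in HFD_IO aortas, against 1.17, 1.52 and 0.969 FPKM in HFD aortas and 9.73, 3.12 and 4.13 FPKM in CD aortas, and fell in HFD against CD (log2 fold change -1.47, limma adjusted p = 0.00742). Irgm2, an immunity-related GTPase, fell by 0.90 in HFD against CD and by 0.77 in HFD_IO against CD on the log2 scale (limma adjusted p = 0.0074 and 0.0144, the second 0.0511 without HFD_IO_3). The gene that rose was Nos2, the inducible nitric oxide synthase, and its rise in HFD_IO against HFD was lost on leaving out any 1 library other than CD_1. The falls in HFD against CD numbered 2 or 3 without any 1 HFD library and 0 without HFD_2 and HFD_3, and those in HFD_IO against CD numbered 0 without HFD_IO_3.

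For comparison, in the 22 genes of MHC class I presentation 0 rose and 3 fell in HFD against CD, 1 rose and 0 fell in HFD_IO against HFD, and 1 rose and 2 fell in HFD_IO against CD. Over all tested genes 21.8%, 14.1% and 17.5% rose and 17.6%, 14.5% and 15.0% fell. The class I falls were those of H2-Q6, H2-Q7 and H2-Q4, of which H2-Q6 had 22.3, 45.5 and 21.7 FPKM in HFD_IO aortas, against 31.0, 18.3 and 11.8 FPKM in HFD aortas and 127, 65.7 and 95.01 FPKM in CD aortas. H2-Q6 fell by 2.23 on the log2 scale in HFD against CD (limma adjusted p = 0.00319). These genes are near-identical to each other, so their counts can be split. Without HFD_2 and HFD_3 the 3 falls numbered 0. Without CD_1 alone, 7 class I genes rose in HFD against CD, and 2 did without HFD_IO_2. The rise in HFD_IO against HFD was Calr, a chaperone of class I assembly, and it was lost on leaving out any 1 HFD or HFD_IO library. In HFD_IO against CD the rises numbered 4 without CD_1, 2 without HFD_1 or HFD_IO_3, and 0 without CD_2 or HFD_IO_2, and the falls numbered 1 without CD_1, CD_3, HFD_IO_1 or HFD_IO_3.

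Of the costimulatory and checkpoint genes, 4 of 8 tested rose and 1 fell in HFD against CD. In HFD_IO against HFD 4 rose and 0 fell, and in HFD_IO against CD 5 rose and 1 fell. Over all tested genes 21.8%, 14.1% and 17.5% rose and 17.6%, 14.5% and 15.0% fell. Havcr2 (TIM-3) had 10.2, 13.3 and 8.64 FPKM in HFD_IO aortas, against 4.47, 3.67 and 1.99 FPKM in HFD aortas and 0.879, 0.563 and 0.565 FPKM in CD aortas, and Vsir (VISTA) rose with it in each comparison. Cd80, a ligand of CD28, rose in each comparison as well, and Icosl, the ligand of ICOS, fell in both comparisons with CD aortas (-0.37 on the log2 scale in each). Without HFD_2 and HFD_3, 2 rose in HFD against CD and 1 in HFD_IO against HFD. In HFD against CD the count was also 2 without CD_2, CD_3 or HFD_2, with Cd80 among the calls lost, and the fall of Icosl was lost without CD_2 in both comparisons and without HFD_IO_2 in HFD_IO against CD. In HFD_IO against CD 3 rose without CD_3. The monocyte list gave 1 rise of 5 in HFD against CD (Plac8), 0 in HFD_IO against HFD and 1 in HFD_IO against CD (Chil3), and the call of Plac8 was lost without CD_2, CD_3, HFD_2 or HFD_3.

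How the libraries were scaled moved many of these counts of other genes. Rescaling each library to TPM moved the median of all tested genes by over 0.1, to -0.30 in HFD against CD, 0.14 in HFD_IO against HFD and -0.23 in HFD_IO against CD. The share of calls that were higher became 17.1%, 67.2% and 28.7% in place of 55.4%, 49.3% and 53.7%, and scaling by the total of recovered reads gave 35.7%, 58.5% and 42.5%. Under TPM the count of class II promoter factors that fell in HFD against CD was 8 in place of 2 and that of class I genes 9 in place of 3. In the same comparison 3 genes of the interferon gamma route rose and 3 fell, and 1 costimulatory or checkpoint gene rose and 2 fell. The counts of endosomal genes that rose in HFD against CD and HFD_IO against CD moved by less than 1.5 times under every alternative. For the class II genes the count past the threshold was 0 of 7 under each of these scalings.

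The pattern over the 9 libraries was described by the mean of the 7 class II genes, each centred and divided by its SD. It was highest in HFD_IO_2 (1.34), HFD_2 (0.84), HFD_1 (0.68) and CD_1 (0.60) and lowest in HFD_IO_1 (-1.23). Among genes outside the 7, the 8 most alike were Ctsw (Pearson r = 0.95), Tcaf2 (0.94), Tnnc1 (0.86), Surf6 (0.84), Psmb9 (0.84), Cxcl9 (0.83), Tnni3 (0.82) and AW112010 (0.81). Tnnc1 and Tnni3, which encode troponins, were low, with at most 2.81 and 3.48 FPKM in any library (HFD_IO_2 for both). Cxcl9, a chemokine induced by interferon gamma, had 0.179, 5.78 and 0.488 FPKM in HFD_IO aortas. In HFD aortas Cxcl9 had 1.06, 1.23 and 1.02 FPKM, and in CD aortas 4.02, 0.338 and 0.747 FPKM. Psmb9, an immunoproteasome subunit encoded in the MHC, had 4.17, 7.23 and 4.16 FPKM in HFD_IO aortas, against 6.81, 8.30 and 5.26 FPKM in HFD aortas and 8.50, 5.70 and 7.08 FPKM in CD aortas. These values of r come from 9 libraries that share their depth scaling and were picked as the highest of all tested genes, and they are given with no test.

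The nearest gene to H2-Aa was H2-Ab1 and the reverse (r = 0.98), and the nearest to H2-Eb1 and to H2-DMa was Cd74 (r = 0.96 in both). The nearest to Cd74 was Ctsw, a cathepsin of cytotoxic lymphocytes (r = 0.96). The nearest to H2-DMb1 was H2-M2, a class I gene (r = 0.95), and the nearest to Ciita was Il2rb, a receptor chain for interleukins of T and NK cells (r = 0.94). With H2-Aa, H2-DMb1 had r = 0.62 and Ciita r = 0.71, against 0.90 to 0.98 for the other 4 members.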

How the data were processed

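Messenger RNA of 9 mouse aortas was read out as 1 table of FPKM values, made by the authors, with gene lengths. The submitters' processing notes name HISAT2 and hg38, a human build, but the genes are mouse genes: GENCODE M21 holds 54409 of the 54532 identifiers, and its GRCm38 coordinates equal those of the table for 98.3% of them, though for 2 of the 7 class II genes only. The sources used here give neither strand nor counting tool. Column names show the group and a number of their own, which the sample titles lack, so columns were mapped to groups only.

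In the deposited FPKM values, 100% of products with gene length were whole multiples of 1 read (within 0.05 of a read), so reads were recovered. Genes at 1 FPKM or higher in 3 or more libraries entered 1 limma 3.58.1 fit (R 4.3.3) of log2(FPKM + 1) with 3 group means over all 9 libraries and a mean-variance trend; the added 1 understates changes of low genes. The fit was tested on simulated reads with the same spread setting for all genes. That spread was narrower than the spread of the class II genes, so the simulation does not test the fit for them. Ratios were compared by exact permutation tests (scipy 1.17.1). The members were given by symbol, and the gene lists, marker lists and motifs were chosen with earlier results of these data known. Named genes are the 7 members, list genes of largest change, the 8 genes most alike over the libraries and the nearest gene of each member. Other list genes (such as Ifi30, March1, Zbtb46, Cd4, Cd80 and Icosl) and the genes given for HFD_2 and HFD_3 were chosen after their values were seen. Alternatives were 2 smaller pseudocounts, 2 filters, 3 scalings, 2 variance models, fits of the compared groups alone, removal of a length trend, voom on recovered reads, each library left out, and, added after seeing the data, both HFD_2 and HFD_3 left out, the DM beta genes summed, and the column number as a block. Promoter windows are from RefSeq, and the result for a further promoter motif is not reported here.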

Additional observations from a re-analysis of the deposited data

How the results depend on the processing

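Under 24 alternatives in each comparison, 71 of the 72 counts of MHC class II genes past the threshold were 0. The exception was HFD_IO against HFD without HFD_IO_2, where H2-Eb1 passed, so that count ranged from 0 to 1 on leaving out each library. Outside the fits that leave out 1 library, the lowest limma adjusted p of any of the 7 genes was 0.0816. Of 501 recomputed fold changes 468 kept their direction and their side of the threshold, 32 changed sign and 1 passed. Many of the 501 could not change sign, so the 468 overstate how stable the directions were. The filters, the variance models, fits of the compared groups alone and the column block leave a fold change as it is. So does leaving out a library of the group that is not compared. In HFD against CD the sign changed with quantile normalization for H2-Aa (-0.036), H2-Ab1 (-0.037), Cd74 (-0.21) and Ciita (0.068), with TPM for H2-DMa (-0.17) and Cd74 (-0.10), and with the length trend removed for H2-DMa (-0.073) and Ciita (0.18). For H2-DMb1 it changed without HFD_2 and HFD_3 (0.80 in HFD against CD and -0.27 in HFD_IO against HFD) and with H2-DMb2 added (0.45 in HFD against CD). In HFD_IO against CD voom gave 0.0015 for H2-Ab1. The cause of these changes was not tested. On leaving out each library in turn, the log2 fold changes that changed sign ranged as follows. In HFD against CD these were H2-DMa (-0.13 to 0.64), H2-DMb1 (-0.50 to 0.36) and Ciita (-0.38 to 0.29). In HFD_IO against HFD it was Ciita (-0.50 to 0.17). In HFD_IO against CD these were H2-Aa (-0.71 to 0.29), H2-Ab1 (-0.62 to 0.43), H2-Eb1 (-0.75 to 0.36), H2-DMa (-0.70 to 0.16) and Cd74 (-0.91 to 0.11). Of 2574 recomputed counts of list genes, 292 moved by more than 1.5 times. The titles number the aortas 1 to 9, with no number shared between groups, and nothing ties the numbers 1 to 3 of the columns to them. Deviations from the group means correlated at -0.23 to 0.22 in 9 pairs of the same number, 4 of them above 0.1. In 18 pairs of other numbers the range was -0.29 to 0.21. Between HFD and HFD_IO columns, pairs of the same number lay at 0.11, 0.15 and 0.12 and other pairs at -0.15 to 0.02. Whether the numbers mark a pairing or a batch was not tested. With the column number as a replicate block, chosen after seeing the data, 0 of 7 class II genes passed in each comparison (lowest limma adjusted p = 0.257). Each group holds every column number, so the block cannot move a fold change and alters only its error. Every member had 91 reads or more in every library, and the intervals of the fold changes come from the spread between 3 libraries a group.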
